A study of Mus musculus with 12 samples.

Results

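Npas4, an activity-induced transcription factor, was followed across 4 groups of hippocampal slice libraries together with Arnt and Arnt2, which encode its dimerization partners, and with the related genes Npas1, Npas2 and Npas3. These 6 genes were chosen by name, out of 41091 gene IDs in the count tables, and their IDs were matched to symbols with the mouse annotation GENCODE M21. All 6 had enough counts to be tested in every comparison. The libraries came from acute hippocampal mini-slices of wild-type male C57BL/6 mice aged 2 to 3 months, with the dentate gyrus cut away. Chemical long-term potentiation (LTP) was induced for 10 min in all, with 50 uM forskolin, which raises cyclic AMP, for the first 5 min and with 30 mM KCl and 10 mM calcium added to it for the remainder. Control slices of the same animals were perfused with 0.2% DMSO alone. Slices were frozen at 1 hr or 3 hr, giving a 1 hr control, a 1 hr LTP, a 3 hr control and a 3 hr LTP group of 3 libraries each, from 3 animals per time point. The design asks which genes respond to LTP induction early and late. Libraries had been prepared only from samples that passed a qPCR check. It asked for a rise of Arc and of the short Homer1 isoform, with the long Homer1 isoform and Hprt unaltered. The groups therefore describe successful inductions. Each library pools whole slices, so that fewer cells of a type and less RNA per cell cannot be told apart.

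NPAS4 belongs to the basic helix-loop-helix PAS (bHLH-PAS) family, whose members bind DNA as dimers. One partner is inducible or restricted to a cell type, and the other, ARNT or ARNT2, is the shared subunit that also serves the hypoxia-inducible factors and the aryl hydrocarbon receptor. In neurons, Npas4 is an immediate early gene that responds to depolarization and calcium entry, and its product regulates genes for synapses, among them Bdnf and Nptx2. NPAS1 and NPAS3 are family members expressed in subsets of neurons, and NPAS2 is a paralogue of the circadian factor CLOCK that pairs with ARNTL (BMAL1).

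On the assembly GRCm38, Npas4 lies on chromosome 19 from 4984355 to 4990316 on the minus strand. Arnt lies on the plus strand of chromosome 3 (95434388 to 95497240), Arnt2 on the minus strand of chromosome 7 (84246278 to 84410176), Npas1 on the minus strand of the same chromosome (16455721 to 16477728), Npas2 on the plus strand of chromosome 1 (39193731 to 39363236) and Npas3 on the plus strand of chromosome 12 (53248677 to 54072175). Arnt2 shares 2.78% of its exonic bases with Gm30873 and Npas3 shares 1.38% with 1700060O08Rik, in both cases a gene of the opposite strand. The sources do not state whether reads were counted by strand, so a small part of these values could belong to the antisense gene. The other 4 genes share no exonic base with an annotated gene.

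Promoters were examined with the LTP results known, because forskolin, given here alone and then with KCl and calcium, raises cyclic AMP. Any part of the letters below in the LTP response was not tested. The RefSeq promoter table for GRCm38.p6 held 1 promoter for each of the 6 genes, from 250 bases before to 50 bases after the annotated start. The palindromic cyclic AMP response element (CRE), TGACGTCA, its short form TGACG and its core GACGTC were searched on both strands, and these letters overlap one another. A stretch of 30 bases is printed for each gene in which a short form was found, in the direction of the gene, with the short forms in capitals. The Npas4 stretch is chr19:4990128-4990157 on the minus strand, 186 to 157 bases before the RefSeq start. The Arnt stretch is chr3:95434151-95434180 on the plus strand, 239 to 210 bases before the start.
Npas4: cgttcgaCGTCAcgggaTGACGtcggaagt
Arnt: TGACGTCAatttggttatgaatctcTGACG
The Npas4 stretch held 2 short forms in opposite orientations, each with all but 1 of its letters in a core GACGTC, and no full element. The Arnt stretch held 1 full element and, counting both strands, 3 short forms. No short form was found in the RefSeq windows of Arnt2, Npas1, Npas2 or Npas3. The RefSeq start lies 138, 948 and 541 bases downstream of the GENCODE gene start for Arnt2, Npas1 and Npas2. For Npas3 the same offset was -245 bases, that is upstream. The windows of Npas1, Npas2 and Npas3 thus do not reach the GENCODE start, and neither does that of Npas4.

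Matches of this kind were also present in other promoters. Of 32851 promoters of the same length, 1.79% held TGACGTCA, 20.8% held TGACG and 4.4% held GACGTC. At least 2 short forms were found in 5.01%, and at least 2 cores in 0.231%. GENCODE starts the transcript Npas4-201 345 bases upstream of the RefSeq start, so there the printed Npas4 stretch lies within the first exon, in its 5′ UTR. No annotated GENCODE feature covers the Arnt stretch. Letters bound by the dimers themselves were searched in the same way. The NPAS4-ARNT core TCGTG was found once each in the Npas1 and Npas2 promoters and in 16.0% of all promoters. The HIF-ARNT core ACGTG was found once each in the Npas2 and Npas3 promoters (19.6% of all promoters), and the AHR-ARNT core GCGTG once each in those of Npas4, Arnt and Npas2 (32.4%). The E-box CACGTG was found in the promoter of 0 members (7.15% of all promoters). The Arnt2 promoter held no match to any of these letters. A match is a description of sequence and does not show binding.

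Library totals lay between 37118382 and 50815001 counts. A limit of 3 counts corresponded to 0.0579 to 0.0800 CPM (counts relative to the TMM-scaled library total), far below the lowest value of any member, 4.08 CPM for Npas1. All members were thus detected in every library. For Npas1, with a mean of 172 counts in the fitted 1 hr controls and 359 in the 3 hr controls, counting error was not small beside the coefficient of variation of 4.86% and 3.87% between those libraries. The tests omit 1 hr control replicate 2, which the study set aside after clustering, but its values are given with the others. Markers of pyramidal neurons, summed over 6 genes, lay between 2649 and 4255 CPM in the 12 libraries, and those of inhibitory neurons between 440.1 and 522 CPM. Markers of dentate granule cells, which trimming should reduce, summed to between 239.7 and 363.4 CPM over 5 genes. Of these Calb1 alone gave 102.5 to 186.9 CPM, and there were no untrimmed slices for comparison. Microglial markers separated the time points, at 173.7 to 202.1 CPM in 1 hr libraries and 122.2 to 142.5 CPM in 3 hr libraries.

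Npas4 showed the widest range of the 6 genes. In 1 hr control replicates 1, 2 and 3 it stood at 24.4, 31.6 and 20.5 CPM, and in the 1 hr LTP replicates at 119.3, 129.1 and 157.4 CPM. The 3 hr controls held 18.5, 19.9 and 24.7 CPM, and the 3 hr LTP libraries 48.1, 47.2 and 75.1 CPM. Every LTP library thus exceeded every control library, and every 1 hr LTP library exceeded every 3 hr LTP library. The mean was 135.3 ± 19.8 CPM (SD, n = 3) in 1 hr LTP slices, 56.8 ± 15.8 in 3 hr LTP slices, 25.5 ± 5.59 in 1 hr controls and 21.03 ± 3.26 in 3 hr controls. The highest group mean was 6.43 times the lowest. For the other members this ratio was 1.59 for Npas1, 1.35 for Arnt, 1.31 for Npas2, 1.27 for Arnt2 and 1.11 for Npas3.

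**Figure D1:**
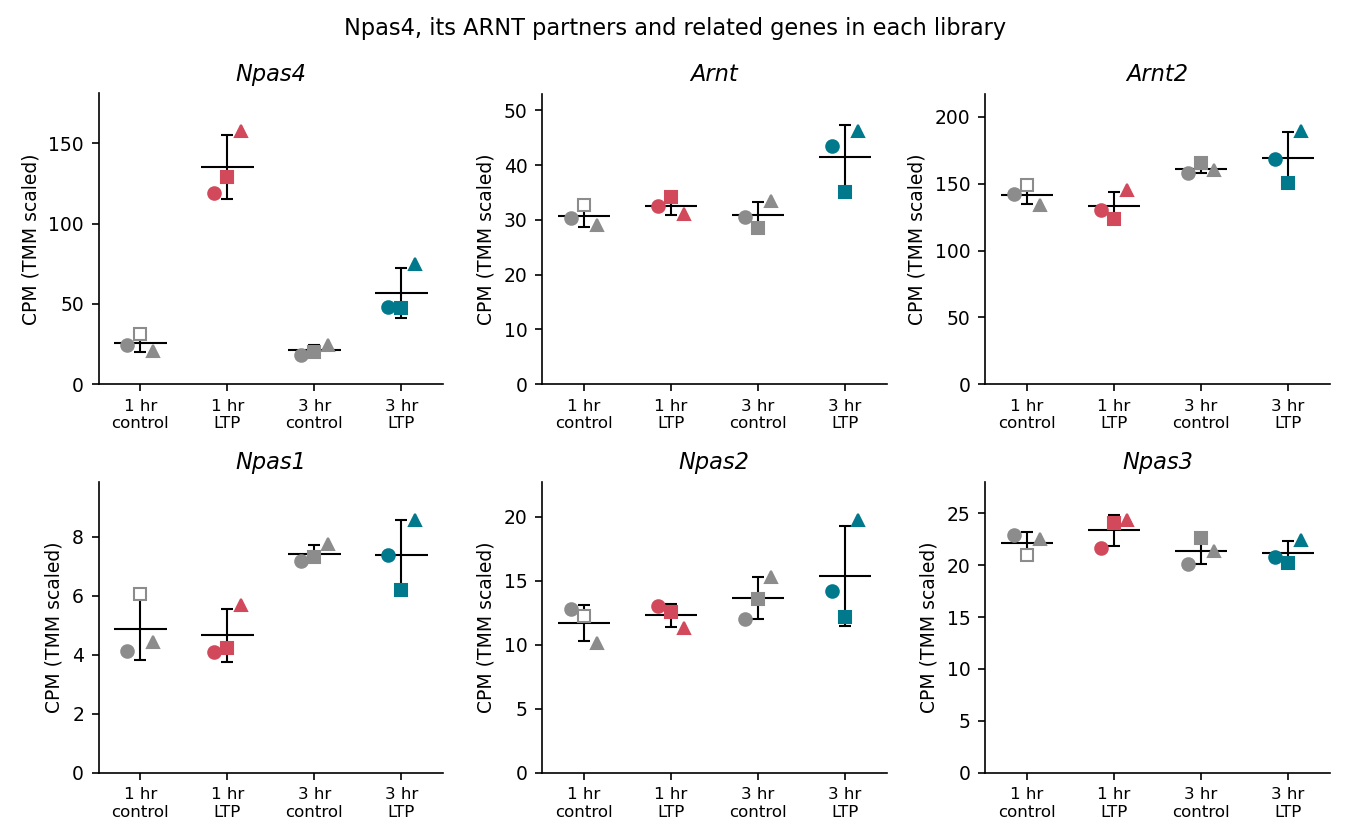
CPM (TMM scaled, linear axis from 0) of each gene in the 12 libraries, by group, with circles, squares and triangles for replicates 1, 2 and 3, horizontal lines for group means and vertical bars for the SD (n = 3). The open square is 1 hr control replicate 2, which the tests leave out. Npas4 in the LTP libraries (47.2 to 157.4 CPM) lies above all controls (18.5 to 31.6 CPM), and in 3 hr LTP slices the square is lowest and the triangle highest in all 6 panels.

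At 1 hr post LTP induction Npas4 was the single member called differentially expressed, that is with a Benjamini-Hochberg adjusted p under 0.1 and a change of more than 1.2-fold in the edgeR test. Over all 17736 genes tested, 0.789% were called (0.778% higher and 0.0113% lower). The rise of Npas4 was 2.60 on the log2 scale (95% interval 2.35 to 2.86), a 6.06-fold change (adjusted p 7.15e-09, edgeR). It ranked sixth by p among all genes. Within animals, the LTP library held 4.88, 4.08 and 7.63 times the CPM of the control library of animals 1, 2 and 3.

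Neither ARNT partner was called at 1 hr. Arnt measured 30.3, 32.8 and 29.01 CPM in the controls and 32.6, 34.3 and 31.0 CPM in the LTP libraries. The fitted libraries did not overlap, but 1 hr control replicate 2 lay above 2 of the LTP libraries, and the difference of 0.15 (interval -0.03 to 0.32) had an adjusted p of 0.839 (edgeR). Arnt2, which predominates over Arnt in the brain, measured 142.5, 148.8 and 134.5 CPM in the controls and 130.4, 123.8 and 145.2 CPM in the LTP libraries. The groups overlapped, and the difference was -0.05 (interval -0.21 to 0.12, adjusted p 0.965, edgeR). These intervals leave out a change as large as that of Npas4, but they do not show that the partners were unaltered.

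The 3 related genes also overlapped between groups at 1 hr. Npas1, the least abundant member, stood at 4.14, 6.06 and 4.43 CPM in controls and 4.08, 4.21 and 5.68 CPM in LTP libraries (log2 difference 0.13, interval -0.25 to 0.51). Its sign turned with the set-aside control included (-0.07), so no direction can be given. Npas2 stood at 12.8, 12.3 and 10.2 CPM in controls and 13.0, 12.6 and 11.3 CPM after LTP (0.11, interval -0.16 to 0.38). Npas3 stood at 22.9, 20.96 and 22.5 CPM in controls and 21.6, 24.1 and 24.4 CPM after LTP (0.05, interval -0.14 to 0.24). The adjusted p of these 3 genes lay between 0.948 and 0.971 in edgeR. Summed endothelial and mural markers were lower in the 1 hr LTP libraries (83.1 to 88.6 CPM) than in the 1 hr controls (99.0 to 106.4 CPM), with 0 of 6 called in edgeR and 4 at an unadjusted p under 0.05 (1190 of 17736 genes), and their part in the 1 hr values was not tested.

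At 3 hr post LTP induction 2 of the 6 members were called, Npas4 and Arnt, both higher, against 6.6% of the 17508 genes tested (5.07% higher). Npas4 remained higher in LTP slices by 1.43 on the log2 scale (interval 1.01 to 1.85), a 2.70-fold change (adjusted p 0.00633, edgeR). The LTP library held 2.60, 2.37 and 3.03 times the CPM of its control in animals 1, 2 and 3. The call held in all 14 alternative fits, with log2 values between 1.18 and 1.57.

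Arnt rose more modestly. It measured 30.5, 28.6 and 33.5 CPM in the 3 hr controls and 43.4, 35.1 and 46.2 CPM in the 3 hr LTP libraries. These values did not overlap, but the share of all genes without overlap was not counted. The mean rose from 30.8 ± 2.46 to 41.6 ± 5.78 CPM (SD, n = 3), a log2 change of 0.43 (interval 0.18 to 0.68, adjusted p 0.0683, edgeR). All 3 animals had the higher value in LTP slices, by 0.51, 0.29 and 0.46. The call of Arnt was not stable: when libraries were omitted in turn, it was lost in 5 of 6 fits. The adjusted p in edgeR was 0.229, 0.281 and 0.123 without control replicates 1, 2 and 3, and 0.230 and 0.104 without LTP replicates 1 and 3. Without LTP replicate 2, which had the lowest Arnt value after LTP, the call held with a larger change (0.54, adjusted p 0.00475, edgeR).

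Arnt2 was not called at 3 hr. It measured 158.2, 165.3 and 160.6 CPM in the controls and 168.2, 150.9 and 189.2 CPM in LTP libraries, where the LTP libraries lay on both sides of the controls (0.07, interval -0.11 to 0.25, adjusted p 0.653, edgeR). Npas1 measured 7.18, 7.33 and 7.74 CPM in controls and 7.37, 6.21 and 8.57 CPM after LTP (-0.01, interval -0.28 to 0.27). Npas2 measured 12.01, 13.6 and 15.3 CPM in controls and 14.2, 12.2 and 19.8 CPM after LTP (0.17, interval -0.21 to 0.55). Npas3 measured 20.1, 22.7 and 21.3 CPM in controls and 20.8, 20.2 and 22.4 CPM after LTP (-0.01, interval -0.19 to 0.16). In each of these 4 genes the groups overlapped and the interval of the difference included 0.

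The 3 hr LTP libraries were ordered alike in every member: replicate 2 was lowest and replicate 3 highest for 6 of 6 genes. The same order was found in 26.6% of the 18584 genes tested. Pyramidal neuron markers followed the libraries in part, since replicate 2 was lowest for 6 of the 6 markers and replicate 3 highest for 5. Their sum was 2649 CPM in the lowest and 4255 CPM in the highest 3 hr LTP library, against 3049 to 3202 CPM in the 3 hr controls. The part of these markers in the rise of Arnt or Npas4 was not tested. Without LTP replicate 3 the change was 1.18 for Npas4, which was still called, and 0.34 for Arnt, which was not.

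**Figure D2:**
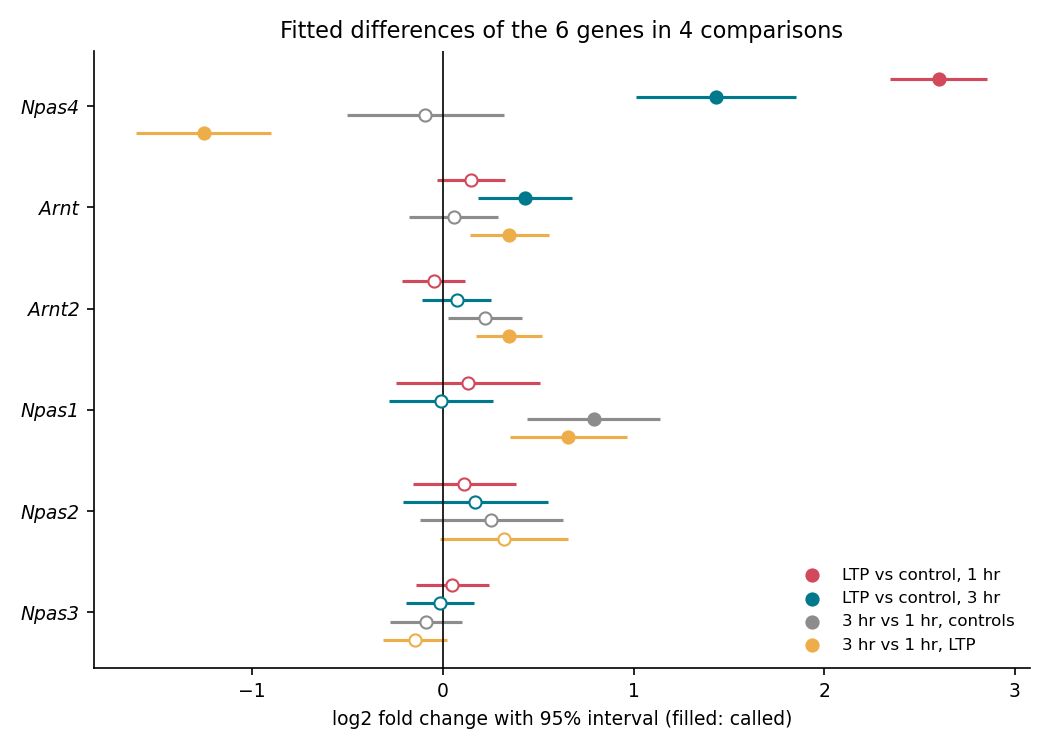
Log2 fold change (x axis, edgeR) of the 6 genes in 4 comparisons, with lines for 95% intervals and filled points for called differences. Npas4 is far to the right after LTP at 1 hr (2.60) and 3 hr (1.43), Arnt is filled at 3 hr but not at 1 hr, and Npas1 is filled in both comparisons between time points.

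The effects at both time points were then compared in a model of the 4 groups. The rise of Npas4 was smaller at 3 hr than at 1 hr by 1.16 on the log2 scale (interval -1.71 to -0.61), with an unadjusted p of 0.000447 but an adjusted p of 0.236 over 18584 genes (edgeR). None of the 6 members passed, where 0.0592% of all genes did (0.0269% with a larger and 0.0323% with a smaller log2 change at 3 hr). Of the 6, 1 had an unadjusted p under 0.05, as did 1225 of 18584 genes, and DESeq2 called 1 member, Npas4, among 80 of the 18584 genes. The Npas4 difference passed in 4 of 19 alternatives. With the replicate block, which pairs slices of the same animal, it was -1.20 (adjusted p 0.0673, edgeR), and with DESeq2 -1.17 (adjusted p 0.0990). Without 3 hr LTP replicate 3 it was -1.43 (adjusted p 0.00605, edgeR). Without a filter beyond 1 count it was -1.17 (adjusted p 6.52e-07, edgeR). Leaving out the filter also moved the adjusted p of Npas4 at 1 hr from 7.15e-09 to 5.73e-178 (edgeR). The log2 change there was nearly the same, so p values without the filter carry little weight. For Arnt, called at 3 hr and not at 1 hr, the change of effect was 0.29 (interval -0.02 to 0.60, adjusted p 0.788, edgeR), so a larger effect at 3 hr was not shown. For Arnt2 it was 0.13, for Npas1 -0.13, for Npas2 0.07 and for Npas3 -0.06, all with an adjusted p of at least 0.936 in edgeR.

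Time after treatment was examined separately in controls and in LTP slices, with the caution that different animals are assumed to have supplied each time point, so that time and animal cannot be told apart. Between the controls 1 member was called, against 32.8% of all genes (16.1% higher and 16.8% lower at 3 hr). Npas1 was higher at 3 hr, with 4.14 and 4.43 CPM in the fitted 1 hr controls and 7.18 to 7.74 CPM at 3 hr, a log2 difference of 0.79 (interval 0.44 to 1.14, adjusted p 0.00282, edgeR). The set-aside 1 hr control, at 6.06 CPM, lay between these groups, and with it included the difference was still called, as in all 18 alternatives (0.62 to 0.88). Arnt2 passed on p but not on the size of the change (0.22, adjusted p 0.0777, edgeR), with 134.5 and 142.5 CPM at 1 hr and 158.2 to 165.3 CPM at 3 hr. With 1 hr control replicate 1 also left out, the Arnt2 difference was 0.31, but that fit rests on 1 control library at 1 hr. Npas4 in control slices differed by -0.09 (interval -0.50 to 0.32), with overlapping groups, and Arnt by 0.06. Npas2 differed by 0.25 and Npas3 by -0.09, with an adjusted p of 0.295 and 0.484 in edgeR.

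Between 3 hr and 1 hr LTP slices 4 members were called, against 35.9% of all genes, 1 lower and 3 higher at 3 hr. Npas4 was lower by 1.25 on the log2 scale (-1.25, adjusted p 0.000124, edgeR). Arnt was higher by 0.35 (adjusted p 0.0124), Arnt2 by 0.35 (adjusted p 0.00440) and Npas1 by 0.66 (adjusted p 0.00301) in edgeR. Npas2 (0.32, adjusted p 0.122) and Npas3 (-0.15, adjusted p 0.166) were not called in edgeR. These values use the same LTP libraries as the comparisons with controls and are not independent of them.

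Markers of other cell types were compared between the control groups as well, where 16.1% of all genes were called higher and 16.8% lower at 3 hr. Of 6 microglial markers 5 were lower in 3 hr than in 1 hr controls, of 6 oligodendrocyte lineage markers 3 were higher, and of 6 inhibitory neuron markers 1 was higher (Slc32a1) and 1 lower (Gad2). The summed inhibitory markers lay between 440.1 and 522 CPM in 1 hr controls and between 457.7 and 499.2 CPM in 3 hr controls, with overlap. The log2 differences of the 6 inhibitory markers had both signs, with 0.55 for Slc32a1 and 0.15 for Gad1 against -0.41 for Gad2, -0.31 for Sst, -0.13 for Pvalb and -0.14 for Vip. Of the 6 pyramidal markers 1 was lower at 3 hr (Neurod6, -1.10, adjusted p 6.90e-05, edgeR), and of 6 endothelial and mural markers 3 were lower, among them Acta2 (-0.98, adjusted p 0.000184, edgeR). Of 5 dentate granule markers 2 were lower, and of 6 astrocyte markers 1 was higher and 1 lower. The part of cell composition in the time differences was not tested.

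Levels of different genes were compared per length, as CPM divided by the exonic length in kb (RPKM). The study describes its expression analysis as using reads in coding regions, and whether the deposited counts were limited to them is not given in the sources used here. The table was not limited to coding genes, since the non-coding 1700016P03Rik held 36.4 CPM in 1 hr LTP slices, but this does not show how coding genes were counted. Levels were therefore also computed per annotated coding length, an alternative chosen after seeing the data. Arnt2 was the most abundant of the 6 genes in 9 of 12 libraries, with 18.5 ± 0.937 RPKM (SD, n = 3) in 1 hr controls and 20.98 ± 0.474 in 3 hr controls. In the 3 libraries of 1 hr LTP slices Npas4 took the first place, with 32.7 ± 4.78 RPKM against 17.3 ± 1.43 for Arnt2. Per coding length Npas4 was above Arnt2 in 2 of these 3 libraries, at 0.884, 1.01 and 1.05 times its level. At 3 hr post LTP Npas4 was second, at 13.7 ± 3.82 against 22.0 ± 2.49 RPKM. Arnt and Npas3 were close and changed places between libraries, at 3.83 ± 0.238 and 3.69 ± 0.172 RPKM in 1 hr controls. That order depended on the length used, since Arnt was above Npas3 in all 12 libraries both per coding length and per longest transcript. Per coding length Arnt was also above Npas4 in all 6 controls. Npas2 followed at 2.45 ± 0.289 RPKM, and Npas1 was the lowest in all 12 libraries (1.62 ± 0.345 RPKM in 1 hr controls).

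Arnt2 exceeded Arnt by 3.76 to 6.02 times over the 12 libraries, with a mean of 4.71, or 4.64 per coding length and 3.14 when the longest annotated transcript set the length. The sum of Arnt and Arnt2 varied little beside Npas4, from 20.4 to 30.4 RPKM over the 12 libraries. Npas4 stood at 0.264, 0.325 and 0.235 of this sum in the 1 hr controls and at 1.37, 1.53 and 1.67 in the 1 hr LTP libraries. It fell short of the sum again at 3 hr, with 0.183, 0.192 and 0.238 in controls and 0.426, 0.476 and 0.598 in LTP libraries. Per exonic length Npas4 thus exceeded the sum of both partners in the 1 hr LTP libraries alone. Per coding length it did so in 0 of 12 libraries, with 0.711, 0.794 and 0.867 in 1 hr LTP slices, and the group means were 0.143 in 1 hr controls, 0.791 in 1 hr LTP, 0.106 in 3 hr controls and 0.259 in 3 hr LTP slices. Whether Npas4 RNA exceeded that of its partners at 1 hr can therefore not be settled from these counts, while its ratio to them was highest in 1 hr LTP slices with each length. With the longest transcript the means were 0.224 in 1 hr controls, 1.23 in 1 hr LTP, 0.168 in 3 hr controls and 0.403 in 3 hr LTP slices. These are ratios of RNA and not of protein.

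**Figure D3:**
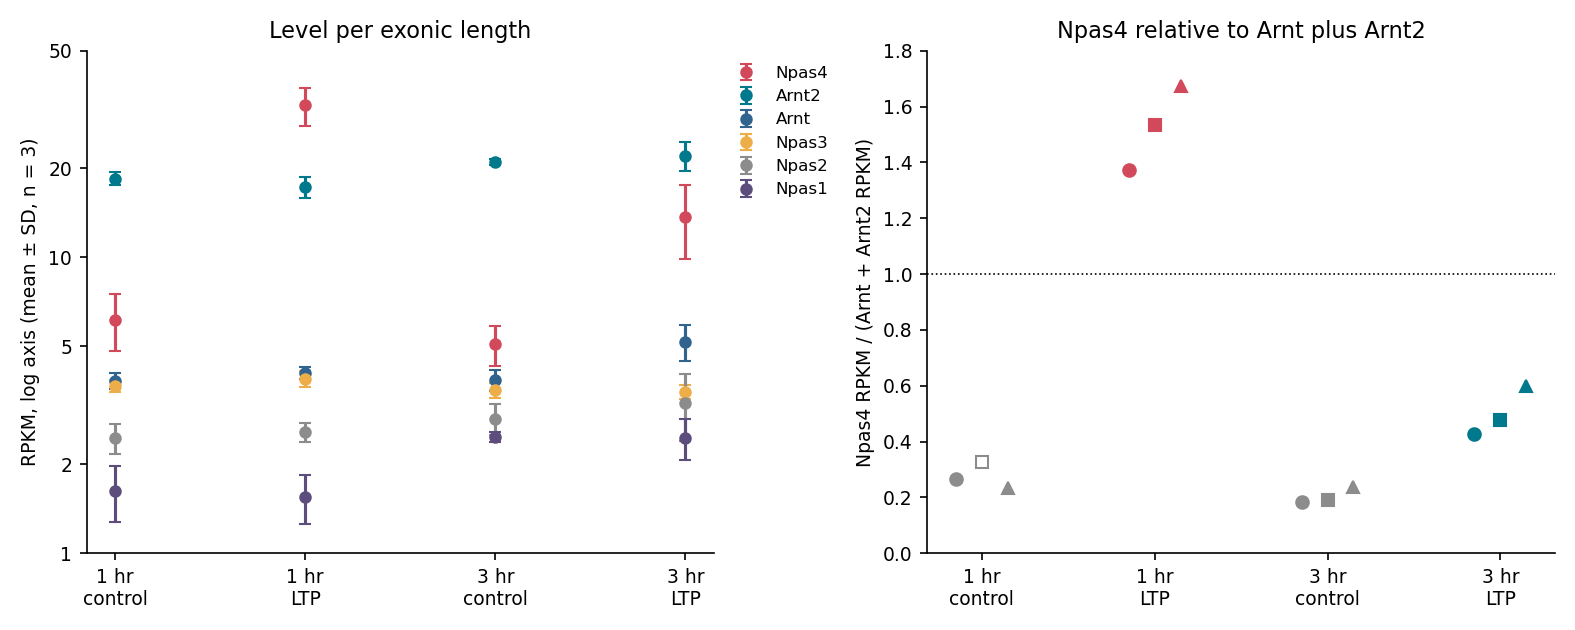
Left, RPKM per exonic length (log axis) of the 6 genes by group, as mean ± SD (n = 3). Right, Npas4 RPKM divided by the sum of Arnt and Arnt2 RPKM in each library (linear axis from 0), with the dotted line at 1, replicates 1, 2 and 3 as circles, squares and triangles, and the set-aside 1 hr control open. The 1 hr LTP libraries (1.37 to 1.67) lie above the line and all others below it (0.183 to 0.598), whereas per coding length, not drawn, all 12 lie below 1.

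Genes with a pattern like that of Npas4 were ranked by the root mean square difference of log2(CPM + 0.1), each gene centred on its own mean, over 11 libraries and 14193 genes averaging 1 CPM or more. On this scale Npas4 itself had an SD of 1.18 over the libraries. The nearest genes were Btg2 (difference 0.260), an antiproliferative immediate early gene, Egr2 (0.321), a zinc finger transcription factor, the non-coding 1700016P03Rik (0.329), Mir212 (0.540) and Fos (0.549), a subunit of AP-1. Mir212 (chromosome 11, 75173388 to 75173478) lies inside 1700016P03Rik (75172560 to 75177633) on the same strand, so these entries describe 1 locus, and reads of this length measure the longer transcript, not the mature miRNA. The ranking used these same libraries, so the levels below are a description of what was selected. With a pseudocount of 1 CPM 4 of the 5 were retained, Arc taking the place of Mir212.

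Each of the nearest genes had, like Npas4, a higher mean in 1 hr than in 3 hr LTP slices. Btg2 stood at 226.3 ± 15.2 CPM (SD, n = 3) in 1 hr LTP and 89.7 ± 3.66 in 3 hr LTP slices, and Egr2 at 62.2 ± 1.08 and 32.1 ± 5.79 CPM. In the same groups 1700016P03Rik stood at 36.4 ± 2.72 and 20.96 ± 3.77 CPM, and Mir212 at 4.44 ± 0.834 and 3.91 ± 1.34 CPM. Fos stood at 795.8 ± 44.1 CPM at 1 hr and 747.9 ± 35.1 CPM at 3 hr post LTP, and its LTP slices at 3 hr and 1 hr differed by -0.09 on the log2 scale, against -1.25 for Npas4.

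**Figure D4:**
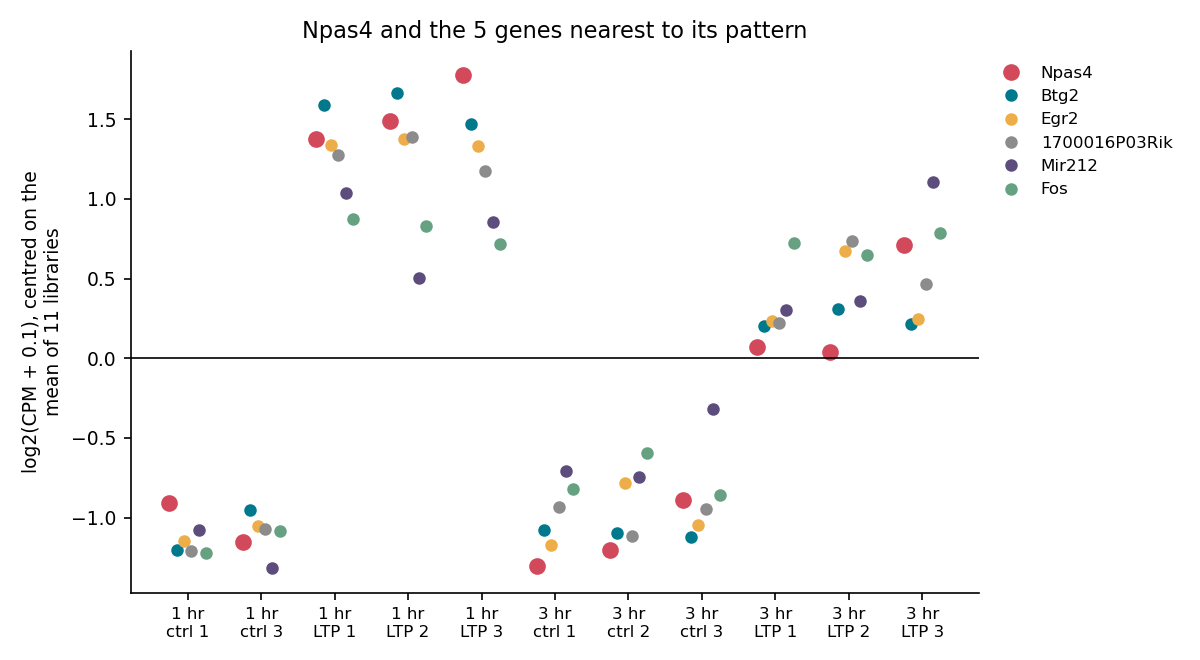
Log2(CPM + 0.1) of Npas4 and the 5 genes nearest to its pattern in the 11 fitted libraries, each gene centred on its mean, with 1 color per gene. All 6 lie below 0 in the control libraries and above 0 in the LTP libraries. At 3 hr post LTP Btg2, Egr2 and 1700016P03Rik lie lower than at 1 hr, while the Fos and Mir212 points of both times overlap.

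The proteins that NPAS4 and the ARNT partners are known to regulate or to work with were described by 4 lists, drawn up with earlier results of these data known. At 1 hr post LTP 3 of 8 NPAS4 target genes were called, all higher (0.778% of all genes were called higher), with a median log2 change of 0.25 over the 8 genes against -0.00103 over all genes. Nptx2, a secreted pentraxin that clusters AMPA receptors, measured 50.8, 55.1 and 51.9 CPM in controls and 94.0, 77.9 and 84.5 CPM after LTP (0.75, adjusted p 0.000245, edgeR). Csrnp1, a nuclear factor, rose by 0.75 (adjusted p 0.000116, edgeR), and Plk2, a polo-like kinase acting in homeostatic plasticity, by 0.44 (adjusted p 0.00378, edgeR). Bdnf, which encodes a neurotrophin, measured 145.4, 133.5 and 153.3 CPM in controls and 174.2, 172.7 and 167.9 CPM after LTP. Its LTP libraries all lay above the controls, but the difference of 0.21 was not called (adjusted p 0.362, edgeR). The call of Plk2 was lost without 1 hr control replicate 1 (0.38), a fit that rests on 1 control library.

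At 3 hr 4 of the 8 targets were called, all higher (5.07% of all genes), with a median of 0.23 against -0.00248 over all genes. Nptx2 measured 87.9, 94.4 and 94.7 CPM in 3 hr controls and 115.9, 135.0 and 122.3 CPM after LTP (0.43, adjusted p 0.0180, edgeR). Its 3 hr controls thus overlapped the 1 hr LTP slices, and they exceeded the 1 hr controls by 0.85 (adjusted p 5.12e-05, edgeR). Csrnp1 rose by 0.49, Plk2 by 0.37 and Frmpd3, a scaffold protein gene, by 0.50, with an adjusted p between 0.0475 and 0.0598 in edgeR. Bdnf, at 153.0, 150.3 and 153.3 CPM in controls and 150.7, 168.0 and 158.1 CPM after LTP, showed no call (0.07, adjusted p 0.575, edgeR). Syt10, Mdm2 and Kcna1 were called at neither time point.

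The other dimers of ARNT have targets of their own. Of 15 genes known as targets of HIF-ARNT or AHR-ARNT, 2 were called at 1 hr, both higher, beside 0.778% of all genes. Tiparp, a mono-ADP-ribosyltransferase induced by the aryl hydrocarbon receptor, measured 108.3, 90.5 and 110.7 CPM in controls and 209.9, 217.8 and 173.5 CPM after LTP (0.88, adjusted p 8.01e-05, edgeR). Cyp1b1, a cytochrome of the same regulon, rose by 0.76 (adjusted p 0.0536, edgeR). At 3 hr 3 were higher and 1 lower, beside 5.07% and 1.53% of all genes. Cyp1b1 measured 10.9, 10.53 and 8.30 CPM in controls and 18.2, 19.8 and 17.8 CPM after LTP (0.91, adjusted p 0.00543, edgeR). Tiparp rose by 0.85 (adjusted p 0.00584, edgeR) and Slc2a1, which encodes the glucose transporter GLUT1, by 0.44 (adjusted p 0.0242, edgeR), whereas the hypoxia-induced Ankrd37 fell by 0.51 on the log2 scale (adjusted p 0.0755, edgeR). The remaining 11 genes were not called, and the median of the list was 0.10 at 1 hr and -0.05 at 3 hr. The call of Cyp1b1 at 1 hr was lost without control replicate 1 (0.55), where 1 control library remained. It was also lost without LTP replicate 1 (0.77) or LTP replicate 2 (0.65). With the block on all 6 libraries (0.71) it was lost as well, and the adjusted p in these 3 fits was at least 0.106 in edgeR.

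**Figure D5:**
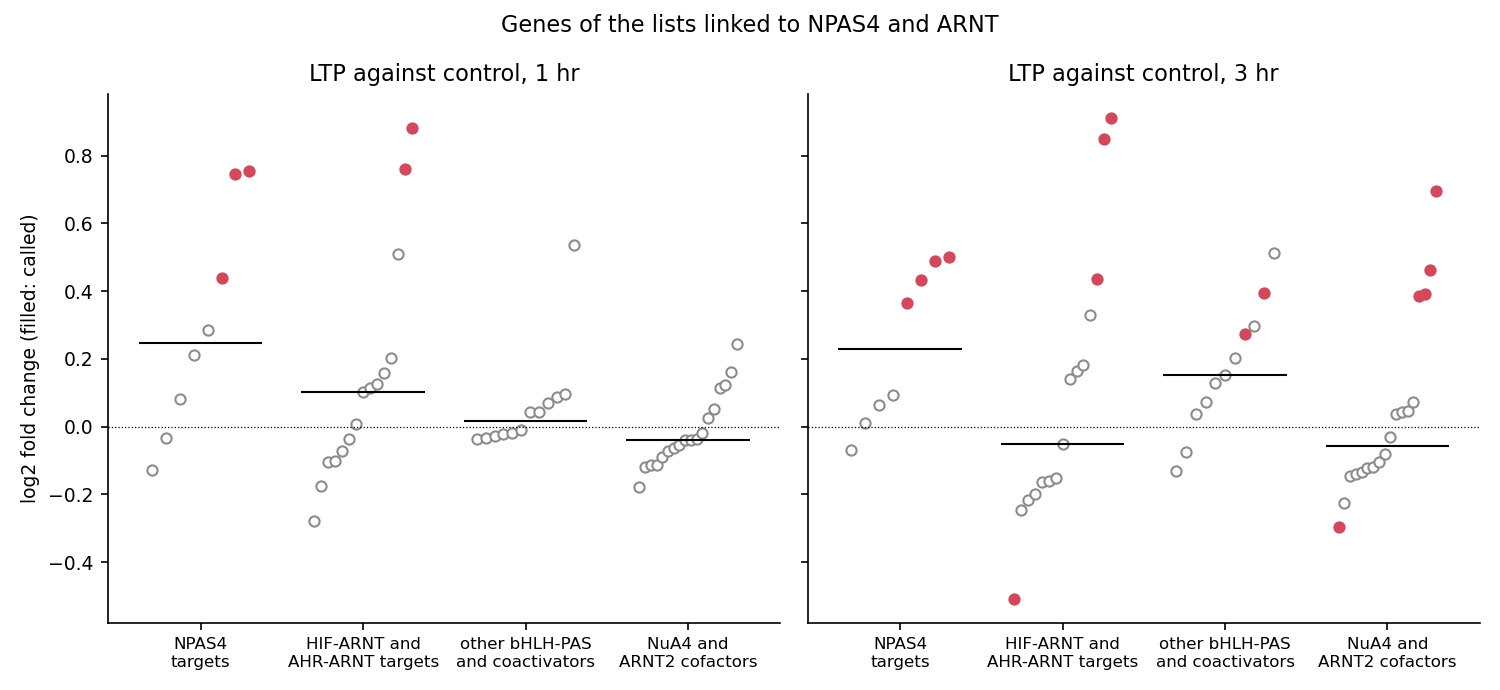
Log2 fold change (y axis, edgeR) of each tested gene in 4 lists linked to NPAS4 and ARNT, LTP against control at 1 hr (left) and 3 hr (right), with filled points for called genes and horizontal lines for list medians. Filled points are 5 at 1 hr, all above 0, and 15 at 3 hr, 13 above and 2 below 0.

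Among other bHLH-PAS genes and their coactivators, 0 of 12 tested genes were called at 1 hr (edgeR), with 0 at an unadjusted p under 0.05, against 0.789% called and 1190 of 17736 genes at such a p. At 3 hr 2 of 11 were called, both higher, beside 5.07% of all genes. Ahr, the aryl hydrocarbon receptor gene and a partner of ARNT, measured 14.9, 15.2 and 14.5 CPM in controls and 18.7, 19.8 and 20.03 CPM after LTP (0.39, adjusted p 0.0234, edgeR). Ncoa2, a p160 coactivator gene, rose by 0.27 (adjusted p 0.0550, edgeR), a call that was lost in 6 of 14 alternatives. Clock and Arntl, which encode the core circadian dimer, were called at neither time point. Clock differed by -0.03 and 0.04, and Arntl by -0.01 and -0.13, with an adjusted p of at least 0.288 in edgeR.

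Subunits of the NuA4 histone acetyltransferase, which acts with NPAS4, and cofactors of ARNT2 were also listed. At 1 hr 0 of 18 were called in edgeR, with 2 at an unadjusted p under 0.05, where 0.789% of all genes were called and 1190 of 17736 had such a p. At 3 hr 4 of 18 were higher and 1 was lower, where 5.07% and 1.53% of all genes were. Ep400, an ATPase of NuA4, measured 113.5, 107.3 and 122.4 CPM in controls and 155.9, 131.3 and 160.6 CPM after LTP (0.39, adjusted p 0.0475, edgeR). Trrap, its scaffold subunit, rose by 0.39 and Etl4 by 0.46, and Yeats4 fell by 0.30 on the log2 scale (adjusted p 0.0535 to 0.0643, edgeR). The median of the list was -0.06.

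Most list calls at 3 hr, like that of Arnt, were lost in at least 1 fit that omitted a library. Of the 15 list genes called, the omission of control replicate 1, 2 or 3 kept 3, 3 and 6, and that of LTP replicate 1, 2 or 3 kept 4, 15 and 14. Nptx2, Tiparp and Cyp1b1 were called in each of these fits. A change of the LTP effect between time points was called for 0 genes of the 4 lists (edgeR), with 5 at an unadjusted p under 0.05, beside 0.0592% called and 1225 of 18584 genes at such a p.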

How the data were processed

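Acute hippocampal slices were measured by total RNA-seq (ribosomal RNA depleted, stranded kit, paired reads). The authors aligned reads with STAR to GRCm38 and deposited raw read counts per gene for each library. Whether counting used strand is not given in the sources used here. Groups came from the sample labels. From the deposited counts, CPM were computed with TMM scaling in edgeR 4.0.16 (R 4.3.3), and differences were tested across all genes with its quasi-likelihood test after filterByExpr and Benjamini-Hochberg adjustment. A gene was called with an adjusted p under 0.1 and a change of more than 1.2-fold (no minimum for the difference between effects). The 1 hr test used 5 libraries, the 3 hr test 6 and the model of the 4 groups 11, since 1 hr control replicate 2 was left out as in the study. RPKM used exonic lengths (as alternatives, the longest transcript or the coding length) of GENCODE M21, to which 40217 of 41091 IDs were matched.

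LTP and control slices with the same number came from 1 animal, per the labels. Correlations of their deviations from the group means were -0.0155, -0.153 and 0.0721 at 1 hr and 0.0360, -0.0264 and 0.212 at 3 hr (18584 genes). The replicate block was run as an alternative. No libraries were duplicates: replicate counts differed by a chi-square per degree of freedom of 9.49 to 85.6.

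The text names the 6 members, the 5 genes most like Npas4 and called genes of 4 lists (other bHLH-PAS proteins and their coactivators, NPAS4 target genes, NuA4 subunits and ARNT2 cofactors, HIF-ARNT and AHR-ARNT target genes) with a few uncalled genes of known role. Markers of pyramidal, inhibitory and dentate granule neurons, microglia, oligodendrocytes, astrocytes and endothelial or mural cells were summed. Astrocyte markers lay between 1731 and 2051 CPM, oligodendrocyte markers between 4244 and 6874 CPM and endothelial and mural markers between 81.1 and 106.4 CPM. Members and lists were chosen with earlier results of these data known. Alternatives were DESeq2 1.42.0, other scalings and filters, the block, inclusion of the set-aside library and leaving out each library. The fits were tested on simulated data. Single results for some genes of the lists are not reported here.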

Additional observations from a re-analysis of the deposited data

Results flagged for a closer look

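Btg2 and Egr2 stood out for a difference between their LTP effects at the time points. Both had been selected for likeness to Npas4 over the same 11 libraries, and the Npas4 profile includes a lower level at 3 hr than at 1 hr post LTP, so the selection favours this difference and the values are given as a description. The log2 effect of Btg2 was 2.66 at 1 hr and 1.35 at 3 hr, a difference of -1.31. That of Egr2 was 2.47 at 1 hr and 1.40 at 3 hr, a difference of -1.06. The difference of Btg2 passed in all 19 alternatives and that of Egr2 in 11 of 19, with an adjusted p of up to 0.445 in edgeR.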

How the results depend on the processing

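Npas4 was called at 1 hr in all 15 alternatives (2.41 to 2.73) and at 3 hr in all 14 (1.18 to 1.57). Leaving out 1 library, the number of members called at 3 hr lay between 1 and 2, because the call of Arnt was lost in 5 of 6 such fits (0.34 to 0.54). The number called for the difference between effects was 1 (Npas4) with DESeq2, without a filter beyond 1 count and with the replicate block, and 0 to 1 when a library was left out. The block was run for the LTP effects and their difference, where it changed no other call of a member, and not for the comparisons between time points. Between controls the called member stayed the same when a library was left out, apart from the fit without 1 hr control replicate 1. That fit rests on 1 control library at 1 hr, and Arnt2 differed by 0.31 there. Between LTP slices 4 to 5 members were called when a library was left out. The mean ratio of Arnt2 to Arnt was 3.14 with the longest transcript and 4.64 per coding length, and the mean ratio of Npas4 to Arnt plus Arnt2 in 1 hr LTP slices was 1.53 per exonic length and 0.791 per coding length.

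Over all genes, the calls at 1 hr were 140 (107 to 347 over the alternatives, 69 to 344 with 1 library left out), at 3 hr 1155 (1127 to 1662, the highest with the replicate block, and 228 without control replicate 2 to 2170 without LTP replicate 2), for the difference between effects 11 (10 to 102, and 1 to 67), between controls 6102 (4991 to 6347, and 4212 to 6422) and between LTP slices 6676 (5985 to 6811, and 5473 to 7500).

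Differences that turned in sign were not called in either direction. With the set-aside control included, Npas1 stood at -0.068 at 1 hr and at 0.055 for the difference between effects, and with the replicate block on all 6 libraries at -0.0589 at 1 hr. Clock (0.0293 and 0.0305) and Arntl (0.0293 and 0.0317) turned at 1 hr under the same changes, and Arnt2 (8.69e-05) under the replicate block. With 1 library left out, the 1 hr ranges were -0.0482 to 0.288 for Npas2, -0.0892 to 0.0745 for Arntl, -0.0198 to 0.108 for Ncoa2, -0.108 to 0.0333 for Yeats4, -0.0658 to 0.0065 for Clock, -0.111 to 0.000682 for Arnt2, -0.0336 to 0.217 for Npas1 and -0.0316 to 0.141 for Ahr. At 3 hr they were -0.0659 to 0.0278 for Npas3, -0.133 to 0.105 for Npas1, -0.0199 to 0.151 for Arnt2 and -0.0539 to 0.315 for Npas2. For the difference between effects they were -0.168 to 0.198 for Npas2 and -0.266 to 0.0443 for Npas1, and between controls -0.206 to 0.0785 for Npas4. The causes were not tested. The 2 to 3 libraries per group limited all member values, and 1 control library remained at 1 hr when control replicate 1 or 3 was left out. Counting depth also limited the values of Npas1.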
